A study of Mus musculus with 8 samples.

Results

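The genes described here, *Txn2*, *Txnrd2*, *Prdx3*, *Prdx5*, *Glrx2* and *Sod2*, encode the thioredoxin and peroxide defence of mitochondria. They were matched by symbol in the deposited counts, 6 of 37310 genes, and were selected on measured values: the counts of *Txn2* with and without TGF-β, whose difference was not the same in the 2 genotypes. The libraries came from NMuMG cells, an epithelial line of normal mouse mammary gland, grown with serum and insulin. Control cells and cells labelled knockout (KO) of *Lnc-Nr6a1*, a long non-coding RNA gene, were sequenced untreated or after 2 h with 10 ng/mL TGF-β1, a growth factor that starts epithelial-mesenchymal transition in this line. Each of the 4 groups (control, control with TGF-β, KO, KO with TGF-β) held 2 libraries. Per the methods of the study, the KO cells carry a CRISPR-Cas9 deletion that takes in the start of *Lnc-Nr6a1*, from its promoter into the first exon, and were grown from single sorted cells. A line grown from 1 cell can differ from its parent for reasons other than the deletion, and how many clones the KO libraries represent is not given in the sources used here.

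Respiration leaks superoxide into the mitochondrial matrix, and Sod2, the manganese superoxide dismutase, turns it into hydrogen peroxide. The peroxiredoxins Prdx3 and Prdx5 reduce that peroxide with a reactive cysteine. Txn2, the mitochondrial thioredoxin, reduces the oxidised peroxiredoxins and is itself reduced with NADPH by the selenoprotein Txnrd2, while Glrx2 is a glutaredoxin that uses glutathione.

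The coding bases of the reactive site of each protein are shown to place the chemistry of each gene, a thiol or selenol in all but Sod2. Each is written 5′ to 3′ from a GENCODE vM1 transcript, and each motif was found once in its transcript. The capitals in Txn2 and Glrx2 run from the first to the second active-site cysteine codon. Those in Txnrd2 hold the C-terminal redox pair of cysteine and selenocysteine, the latter encoded by TGA. Those in Prdx3 and Prdx5 end with the codon of the peroxide-reducing cysteine, and those in Sod2 span the metal-binding signature of the manganese dismutases.
Txn2: gcacagtggTGTGGCCCCTGCaagatccta
Txnrd2: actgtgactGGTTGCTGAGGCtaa
Prdx3: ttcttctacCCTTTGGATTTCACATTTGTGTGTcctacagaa
Prdx5: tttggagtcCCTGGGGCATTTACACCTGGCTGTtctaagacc
Glrx2: aaaacatccTGCTCTTACTGTtccatggcc
Sod2: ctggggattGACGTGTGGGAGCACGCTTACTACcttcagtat
The capitals cover codons 90 to 93 of 166 in Txn2, 521 to 524 in Txnrd2, 102 to 109 of 257 in Prdx3, 89 to 96 of 210 in Prdx5, 70 to 73 of 156 in Glrx2 and 183 to 190 of 222 in Sod2. No other place in the mouse genome matched the coding sequence of any of the 6 genes over at least 75 bases at 95% identity or more. No near-identical copy of the coding sequence was therefore found that could share its reads. The rest of the exons, which also take reads, was not searched. In Txn2 the coding sequence is 501 of 4208 exon bases.

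The promoter of *Txn2*, the member with the widest range over the libraries on the log2 scale, is given as the 250 bases before its start on the minus strand, chr15:77928995-77929244, from RefSeq on GRCm38.p6, a later build than the mm9 positions of the counted genes. The capitals mark the only match to 5 motifs searched on both strands, an ETS/GABP core (CCGGAAG) that begins 119 bases before the start.
Txn2 promoter: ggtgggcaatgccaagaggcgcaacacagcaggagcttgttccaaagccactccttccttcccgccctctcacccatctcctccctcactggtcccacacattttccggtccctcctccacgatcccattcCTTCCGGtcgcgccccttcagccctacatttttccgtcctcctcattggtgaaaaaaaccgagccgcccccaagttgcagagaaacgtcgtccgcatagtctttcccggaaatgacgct
This core is in 6.91% of 32851 promoters of the same length and was also found before *Prdx5*, 48 bases from the start. The promoters of the other 4 members held none of the 5 motifs, which besides the ETS/GABP core were the antioxidant response element TGACNNNGC (10.16% of promoters), the AP-1 site TGANTCA (6.75%), the Smad palindrome GTCTAGAC (0.17%) and the NRF1 core GCGCATGC (2.26%). A match is a description of letters, not of binding, and a promoter without a match can still hold other forms of a site.

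The library totals were 4297832 to 13574397 counts, with 3 counts worth 0.238 to 0.661 CPM (the usual read count relative to library size, with TMM scaling). The smallest total was that of KO replicate 1, and the KO libraries with TGF-β were the deepest. *Gm13507*, the annotated gene at *Lnc-Nr6a1*, had 3 and 14 counts in control cells, 25 and 35 in control cells with TGF-β, 11 and 7 in the untreated libraries labelled KO and 0 and 0 in those labelled KO with TGF-β. In the untreated libraries it therefore did not separate the labels, so every KO value below refers to the library labelled so. The study itself reports PCR for the deletion, and RT-qPCR in which homozygous clones had lost expression of the isoforms completely. Known early TGF-β targets rose in both genotypes, 5 of 6 in each, including *Skil*, a repressor of Smad signalling (log2 fold change 2.09, SE 0.18, adjusted p = 0.000507 in control cells; 2.34, SE 0.19, adjusted p = 0.000313 in KO cells, edgeR). The epithelial markers summed to 5910 to 11000 CPM, although *Epcam* had no count in 7 libraries and *Cldn3* none in any. The sum was 7980 to 11000 CPM in the TGF-β groups and 5910 to 7010 CPM in the untreated groups. With TGF-β, 2 of the 6 tested markers were called in control cells (*Krt8* and *Krt18*, both higher) and 0 of 6 in KO cells. The shares of all genes tested were 9.16% and 6.82%. *Krt8* rose by 0.65 (adjusted p = 0.0472) and 0.58 (adjusted p = 0.0792, edgeR), and *Krt18* by 0.96 and 0.48. For KO minus control with TGF-β, 1 of 6 was called, *Cdh1* (0.61, adjusted p = 0.0433), against 15% of all genes tested. The part of these marker changes in the results was not tested. The summed fibroblast markers were at most 0.937 CPM, the endothelial ones at most 0.847 and the leukocyte ones at most 5.32. The 13 protein genes of mitochondrial DNA were listed at 0 in all 8 libraries, so the data give no measure of mitochondrial RNA beside the nuclear genes described here.

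*Txn2* (ENSMUSG00000005354.9; mm9 chromosome 15, 77745477 to 77759436, minus strand) carries electrons from Txnrd2 to the peroxiredoxins. Its level was 70.3 and 70.7 CPM in control cells, 27.5 and 32.3 in control cells with TGF-β, 73 and 70.6 in KO cells and 95.6 and 101 in KO cells with TGF-β. The untreated libraries of both genotypes shared the same range, the treated control libraries were below it and the treated KO libraries above it. These values rest on 293 to 1273 reads per library.

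The fitted log2 fold change of *Txn2* with TGF-β was -1.24 (SE 0.15) in control cells, 0.424 of the untreated level, and 0.46 (SE 0.14) in KO cells, 1.37 times the untreated level. KO minus control was 0.03 (SE 0.14) without TGF-β and 1.72 (SE 0.15) with it, a fold of 3.3. The response in KO cells minus that in control cells was 1.7 (SE 0.21), which stayed between 1.62 and 1.84 in 16 alternative fits. The 4 comparisons share libraries in pairs, so their values are not separate evidence of each other. Since the pattern of *Txn2* was the ground for choosing the genes, these values are descriptions without a test. As background, the difference of responses passed an adjusted p of 0.05 in 0 of 13028 genes with edgeR (0%; 1134 genes had an unadjusted p under 0.05), in 25 with DESeq2 and in 0 with limma-voom.

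**Figure D1:**
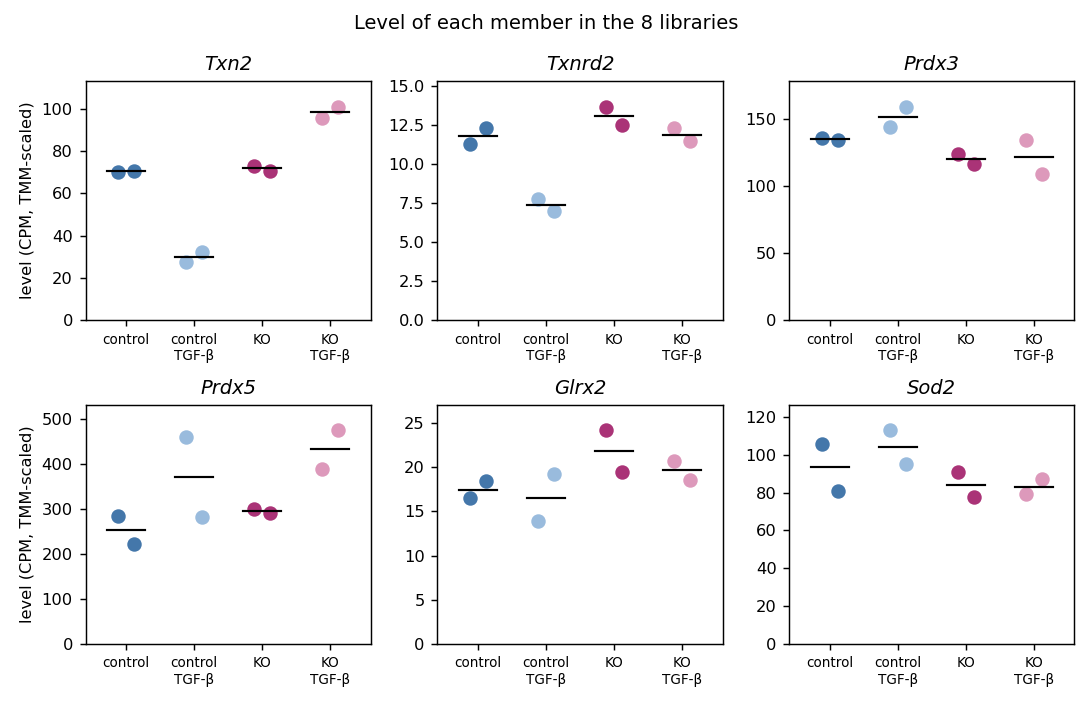
Level of the 6 genes in each library, in CPM on a linear axis from 0, with a point for each of the 2 replicates of a group and a line at their mean. *Txn2* lies at 27.5 and 32.3 in control cells with TGF-β and at 95.6 and 101 in KO cells with TGF-β, and *Txnrd2* has its 2 lowest libraries, 7.78 and 6.98, in control cells with TGF-β.

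*Txnrd2* (ENSMUSG00000075704.9; mm9 chromosome 16, 18426510 to 18479166, plus strand), the reductase that restores Txn2, had 11.3 and 12.3 CPM in control cells, 7.78 and 6.98 in control cells with TGF-β, 13.7 and 12.5 in KO cells and 12.3 and 11.5 in KO cells with TGF-β. Both treated control libraries were below all others, and the other 6 libraries lay between 11.3 and 13.7 CPM. Within that range, both untreated KO libraries were above both untreated control and both treated KO libraries. The log2 fold change with TGF-β in control cells was -0.68 (SE 0.23, 95% interval -1.2 to -0.16, adjusted p = 0.0972, edgeR) and KO minus control with TGF-β was 0.69 (SE 0.23, 0.18 to 1.2, adjusted p = 0.0699). Neither passed the threshold, nor did it in any of 17 alternatives each, in which the adjusted p was 0.0723 to 0.313 and 0.0515 to 0.209.

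TGF-β in KO cells gave *Txnrd2* a log2 fold change of -0.13 (SE 0.23, -0.64 to 0.38, adjusted p = 0.787), and KO minus control without TGF-β one of 0.14 (SE 0.23, -0.37 to 0.66, adjusted p = 0.825). Its response in KO cells minus that in control cells was 0.55 (SE 0.32), the value closest to that of *Txn2* among the 5 other members. The counts were low, 62 to 151 per library. Whether the counting used strand is not given in the sources used here, so its counts are uncertain wherever its exons share bases with a gene on the other strand.

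*Prdx3* (ENSMUSG00000024997.7; mm9 chromosome 19, 60939954 to 60950459, minus strand) is the peroxiredoxin of the matrix that depends on Txn2. Its level was 136 and 134 CPM in control cells, 144 and 159 in control cells with TGF-β, 124 and 116 in KO cells and 134 and 109 in KO cells with TGF-β. The libraries of the treated genotypes did not overlap, nor did those of the untreated genotypes or of control cells with and without TGF-β. The gaps were small beside the spread within the treated KO group. Here and for the other genes, such a separation of 2 against 2 libraries can often arise by chance. Its share over all genes is not given here, so it is a description only. KO minus control was -0.32 (SE 0.15, 95% interval -0.65 to 0.02, adjusted p = 0.182) with TGF-β and -0.17 (SE 0.15, -0.51 to 0.16, adjusted p = 0.638) without it. The response to TGF-β was 0.16 (SE 0.15, -0.17 to 0.5, adjusted p = 0.522) in control cells and 0.02 (SE 0.15, -0.32 to 0.36, adjusted p = 0.955) in KO cells.

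*Prdx5* (ENSMUSG00000024953.9; mm9 chromosome 19, 6981187 to 6984596, minus strand) encodes a peroxiredoxin found in mitochondria, peroxisomes and the cytosol. Its level was 283 and 222 CPM in control cells, 460 and 282 in control cells with TGF-β, 300 and 291 in KO cells and 389 and 474 in KO cells with TGF-β. Both treated KO libraries were above both untreated KO libraries, which were above both untreated control libraries. The treated control libraries overlapped the untreated control ones. The spread within the treated control group was the widest of the 6 genes, 371 ± 126 CPM (SD, n = 2). With TGF-β the log2 fold change was 0.56 (SE 0.23, 95% interval 0.05 to 1.06, adjusted p = 0.154) in control cells and 0.55 (SE 0.23, 0.04 to 1.05, adjusted p = 0.192) in KO cells, with neither adjusted p under 0.05.

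These calls for *Prdx5* depended on single libraries; where a fit leaves 1 library in a group, that library is assumed to vary like those of the other groups. Without control TGF-β replicate 2, the response in control cells was 0.87 (adjusted p = 0.0243), and without control TGF-β replicate 1 it was 0.15 (adjusted p = 0.634). Without either treated control library the response in KO cells was 0.57 (adjusted p = 0.0441), which was called, as was the 0.87. Over the 17 alternatives the adjusted p ran from 0.0138 to 0.634 in control cells, where 3 made the call, and from 0.00556 to 0.52 in KO cells, where 4 did. KO minus control was 0.22 (SE 0.23, -0.29 to 0.72, adjusted p = 0.552) with TGF-β, but 0.63 (adjusted p = 0.0448) without control TGF-β replicate 1 and -0.09 at the lowest, with adjusted p from 0.0448 to 0.906. Without TGF-β it was 0.23 (SE 0.23, -0.28 to 0.74, adjusted p = 0.69). The start of *Prdx5* lies within *Trmt112*, a methyltransferase cofactor gene on the opposite strand, with 409 bases of exon in common, so that reads there could belong to either. *Trmt112* had 45.6 and 30.5 CPM in control cells with TGF-β, the same replicate being the higher as for *Prdx5*, and was called in none of the 4 comparisons (adjusted p 0.225 to 0.856).

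*Glrx2* (ENSMUSG00000018196.11; mm9 chromosome 1, 145586159 to 145596806, plus strand), the glutaredoxin, had 16.5 and 18.4 CPM in control cells, 13.9 and 19.2 in control cells with TGF-β, 24.2 and 19.5 in KO cells and 20.7 and 18.6 in KO cells with TGF-β. The groups overlapped, apart from the untreated ones, in which both KO libraries were above both control libraries. The fitted difference there was 0.32 (SE 0.23, 95% interval -0.2 to 0.84, adjusted p = 0.571). With TGF-β, KO minus control was 0.25 (SE 0.22, -0.25 to 0.76, adjusted p = 0.481), and the responses to TGF-β were -0.08 (SE 0.23, -0.6 to 0.43, adjusted p = 0.85) in control cells and -0.15 (SE 0.23, -0.66 to 0.36, adjusted p = 0.752) in KO cells.

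*Sod2* (ENSMUSG00000006818.4; mm9 chromosome 17, 13200705 to 13210985, plus strand), whose product makes the peroxide that the others remove, had 106 and 80.8 CPM in control cells, 113 and 95 in control cells with TGF-β, 91 and 77.5 in KO cells and 79.2 and 87.3 in KO cells with TGF-β. The untreated groups overlapped, and with TGF-β both KO libraries were below both control libraries. KO minus control was -0.32 (SE 0.18, 95% interval -0.72 to 0.08, adjusted p = 0.248) with TGF-β and -0.15 (SE 0.18, -0.56 to 0.25, adjusted p = 0.743) without it. TGF-β gave 0.15 (SE 0.18, -0.25 to 0.55, adjusted p = 0.618) in control cells and -0.01 (SE 0.18, -0.42 to 0.39, adjusted p = 0.976) in KO cells.

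Of the 5 members besides *Txn2*, 0 were called in each of the 4 comparisons by edgeR, at an adjusted p under 0.05 and an absolute log2 fold change over 0.5, and 0 by DESeq2 or limma-voom. At an unadjusted p under 0.05 there were 0 without TGF-β, 2 for TGF-β in control cells (*Txnrd2* and *Prdx5*), 1 for TGF-β in KO cells (*Prdx5*) and 1 for KO minus control with TGF-β (*Txnrd2*). Among all 13028 genes tested, edgeR called 1.83% for KO minus control without TGF-β, 9.16% for TGF-β in control cells, 6.82% for TGF-β in KO cells and 15% for KO minus control with TGF-β. Against backgrounds of this size, a count of 0 of 5 sets these genes apart in no comparison. The response in KO cells minus that in control cells was -0.14 (SE 0.21) for *Prdx3*, -0.01 (SE 0.32) for *Prdx5*, -0.07 (SE 0.32) for *Glrx2* and -0.17 (SE 0.25) for *Sod2*, given without a test because the same contrast chose the genes.

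**Figure D2:**
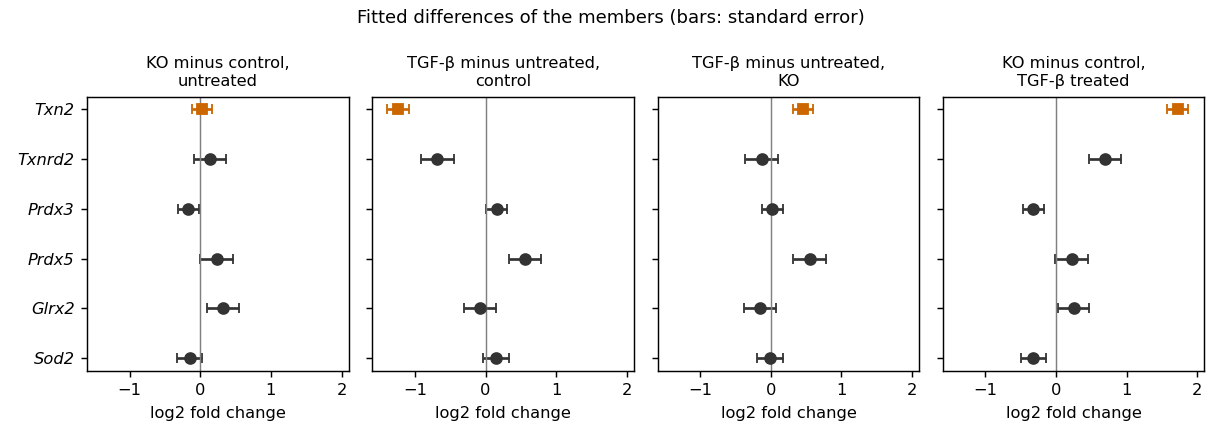
Fitted log2 fold changes of the 6 genes in the 4 comparisons, with bars of 1 standard error on each side; 0 means no difference. The square of *Txn2* is a description without a test, at -1.24 for TGF-β in control cells and 1.72 for KO minus control with TGF-β. *Txnrd2* and *Glrx2* lie on the same side of 0 as *Txn2* in both, at -0.68 and 0.69 and at -0.08 and 0.25, but below 0 for TGF-β in KO cells (-0.13 and -0.15), where *Txn2* is at 0.46.

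The 6 genes were expressed at very different levels once divided by the length of their annotated exons. In control cells the means were 118 ± 20.1 CPM per kb for *Prdx5*, 91.5 ± 0.916 for *Prdx3*, 24.5 ± 4.73 for *Sod2*, 16.8 ± 0.059 for *Txn2*, 3.54 ± 0.21 for *Txnrd2* and 3.33 ± 0.257 for *Glrx2* (SD, n = 2). The peroxiredoxins were thus the most abundant and the reductase and glutaredoxin the least. The last 2 did not differ beyond their spread, while the libraries of the other neighbours in this order did not overlap. With TGF-β, *Txn2* had 7.1 ± 0.81 CPM per kb in control cells, against 27.2 ± 3.38 for *Sod2*. In KO cells with TGF-β it had 23.4 ± 0.934, which overlapped the 21.8 ± 1.5 of *Sod2*. The lengths pool all annotated transcripts and so can understate a gene that uses a short one.

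*Txn2* contributed 11.3 to 13.1% of the counts of the 6 genes in all groups but control cells with TGF-β. Its share was 11.3% (95% Wilson interval 10.4 to 12.2) and 13.1% (12.2 to 14.2) in control cells, 11.7% (10.5 to 12.9) and 12% (11.1 to 13) in KO cells, and 13.1% (12.4 to 13.8) and 12.6% (12 to 13.3) in KO cells with TGF-β. In control cells with TGF-β it was 3.58% (3.2 to 4.01) and 5.43% (4.87 to 6.05). These shares use no scaling between libraries, and the intervals cover counting error only. The treated control libraries differed from each other by more than that error, and replicate 1, with the lower share, was the library with the higher *Prdx5*.

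**Figure D3:**
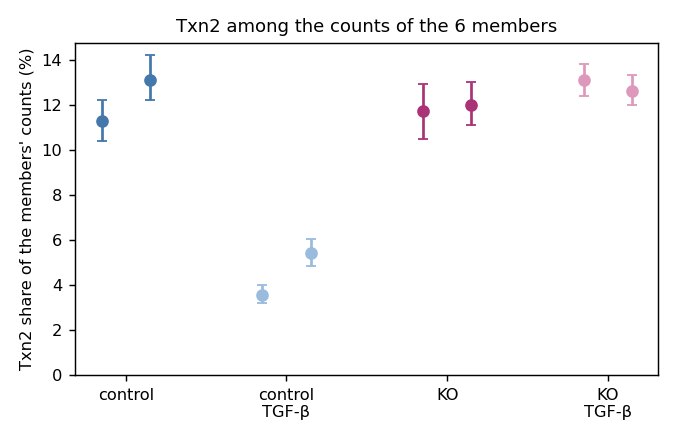
Share of *Txn2* in the summed counts of the 6 genes, in percent, for each of the 8 libraries, with 95% Wilson intervals as bars. The 2 control libraries with TGF-β lie at 3.58 and 5.43%, and the other 6 between 11.3 and 13.1%.

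Over the 8 libraries, the SD of log2 CPM was 0.69 for *Txn2*, 0.34 for *Txnrd2*, 0.17 for *Prdx3*, 0.38 for *Prdx5*, 0.23 for *Glrx2* and 0.2 for *Sod2*. The pooled SD within groups was 0.09, 0.09, 0.13, 0.3, 0.21 and 0.19 in the same order. For *Glrx2* and *Sod2* the spread over the libraries was about that between replicates. After centring each gene on its mean over the 8 libraries, the root mean square difference from *Txn2* was 0.386 for *Txnrd2*, 0.552 for *Glrx2*, 0.743 for *Prdx5*, 0.769 for *Prdx3* and 0.776 for *Sod2* on the log2 scale. Among the tested genes *Txnrd2* ranked 315 in closeness to *Txn2* and *Sod2* ranked 7893.

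The 5 genes closest to *Txn2* by this measure, over the same 8 libraries, were *Spint2* (0.09), *Mrpl12* (0.114), *Gm15487* (0.174), *Slc6a9* (0.187) and *Gaa* (0.211). *Spint2*, which encodes a membrane-bound inhibitor of serine proteases, had 87.8 and 87 CPM in control cells, 34.9 and 44.7 in control cells with TGF-β, 100 and 101 in KO cells and 114 and 137 in KO cells with TGF-β. *Mrpl12*, a protein of the mitochondrial ribosome, had 60.6 and 54.4, 20.8 and 30.4, 64.4 and 67.4, and 86.7 and 86.1 CPM in the same groups. *Gm15487* is annotated as a pseudogene, *Slc6a9* encodes a glycine transporter and *Gaa* the lysosomal alpha-glucosidase. All 5 had their lowest pair of libraries in control cells with TGF-β. They were ranked on the values that define the pattern of *Txn2*, so their likeness is a description without a test.

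**Figure D4:**
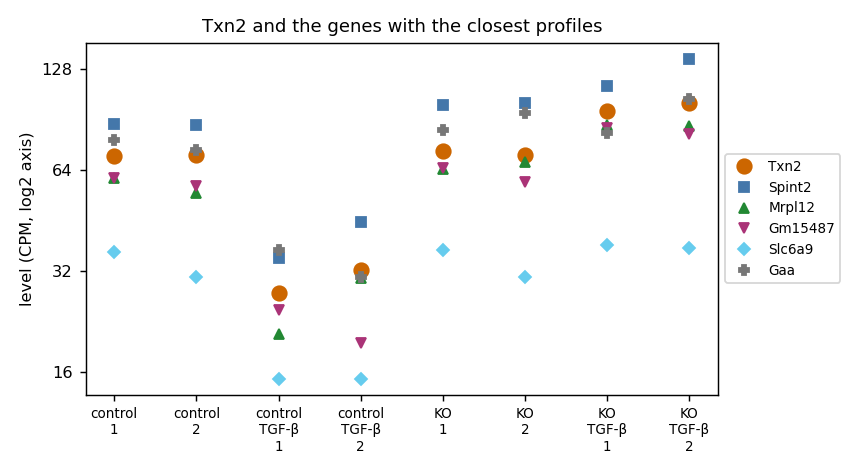
Level in CPM, on a log2 axis, of *Txn2* and the 5 genes with the closest profiles, in each of the 8 libraries by group and replicate. All 6 genes are lowest in the 2 control libraries with TGF-β, for example *Txn2* at 27.5 and 32.3 and *Slc6a9* at 15.3 and 15.3.

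Other redox genes, and the chaperones and proteases of mitochondria, were listed in 3 groups, and 37 of these genes were tested. In all, 2 were called without TGF-β (5.41%), 4 for TGF-β in control cells (10.8%), 2 for TGF-β in KO cells (5.41%) and 6 for KO minus control with TGF-β (16.2%), with median log2 fold changes of 0.03, 0.19, 0.09 and -0.19. The medians of all genes tested were 0.02, 0.02, 0 and -0.01. For 3 of the 4 comparisons the share called was within 2 percentage points of that of all genes.

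The mitochondrial glutathione and NADPH genes included glutathione peroxidases and methionine sulfoxide reductases. Of the whole list, 12 genes were tested and 0 were called by edgeR in each of the 4 comparisons. Among all genes tested the shares called were 1.83, 9.16, 6.82 and 15%. With so few genes, a count of 0 does not set these genes apart. Their medians were 0.11, 0.12, 0.03 and 0.07. The smallest p in KO minus control without TGF-β was that of *Nnt*, the transhydrogenase that makes NADPH in the matrix, at 0.3 (adjusted p = 0.372). In the other 3 it was that of *Msrb2*, a methionine sulfoxide reductase with only 13 to 46 counts per library. Its values were 1.21 (SE 0.5, adjusted p = 0.159) for TGF-β in control cells and -0.89 (SE 0.51, adjusted p = 0.35) in KO cells. For KO minus control with TGF-β the value was -1.28 (SE 0.48, adjusted p = 0.105).

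Of 15 tested cytosolic and secretory counterparts, 4 rose with TGF-β in control cells and 14 had a fitted value above 0, with a median of 0.46, against 9.16% called and 6695 of 13028 above 0 among all genes tested. *Glrx*, the cytosolic glutaredoxin, rose from 15.8 ± 0.811 to 36.5 ± 3.47 CPM (SD, n = 2), a log2 fold change of 1.21 (SE 0.18, adjusted p = 0.00542). *Prdx2*, a cytosolic peroxiredoxin, rose by 0.62 (SE 0.13, adjusted p = 0.0244), *Txnl1*, a thioredoxin-like protein, by 0.67 (SE 0.15, adjusted p = 0.0274), and *Prdx4*, the peroxiredoxin of the secretory pathway, by 0.72 (SE 0.17, adjusted p = 0.0323). In KO cells *Glrx* rose by 0.74 (SE 0.19, adjusted p = 0.0451) and *Txnl1* by 0.6 (SE 0.15, adjusted p = 0.0467), and the median was 0.16. The difference of responses between the genotypes passed the test for none of these genes, as for 0 of all 13028 genes with edgeR, which does not show that the responses were alike.

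Several of these calls were lost when a library was left out, although the folds kept their direction. For TGF-β in control cells, all 4 were lost without control replicate 1 or without control replicate 2, and *Glrx* alone was called without KO replicate 1 or KO replicate 2 (adjusted p over the alternatives 4.36e-05 to 0.0626). The calls of *Prdx2* and *Txnl1* were also lost without control TGF-β replicate 1, and that of *Prdx4* without control TGF-β replicate 2. Over all alternatives the log2 fold change in this comparison ran from 1.09 to 1.3 for *Glrx* and 0.53 to 0.69 for *Prdx2*. It ran from 0.58 to 0.77 for *Txnl1* and 0.62 to 0.83 for *Prdx4*. The fit on only the 4 libraries compared made the call for *Glrx* alone, and the replicate block and thinned counts lost that of *Prdx4*. Without control replicate 1 or 2 the calls among all genes in this comparison also fell, from 1194 to 145 and 314. For TGF-β in KO cells, both were lost when any untreated library or either treated KO library was left out (adjusted p 0.0182 to 0.266 for *Glrx*), with log2 fold changes of 0.64 to 0.85 for *Glrx* and 0.52 to 0.72 for *Txnl1*. Both were also lost with limma-voom, the replicate block and thinned counts, and *Glrx* with the fit on the 4 libraries compared.

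With TGF-β, KO cells had more *Sod3*, the extracellular superoxide dismutase, at 37.3 ± 0.243 against 14.1 ± 0.684 CPM, a log2 fold change of 1.4 (SE 0.19, adjusted p = 0.00269). Without TGF-β the difference was 1.44 (SE 0.2, adjusted p = 0.00816), with 25 ± 2.96 against 9.22 ± 0.609 CPM. *Prdx4* was lower in KO cells with TGF-β by -0.97 (SE 0.17, adjusted p = 0.00758), *Glrx3*, a glutaredoxin of iron-sulfur cluster transfer, by -0.76 (SE 0.15, adjusted p = 0.0133) and *Prdx1*, the main cytosolic peroxiredoxin, by -0.56 (SE 0.16, adjusted p = 0.0487). The median of the 15 was -0.31. The untreated call of *Sod3* was lost without control replicate 1, control replicate 2 or KO replicate 2, those of *Prdx4* and *Glrx3* without KO TGF-β replicate 2, and that of *Prdx1* when any library but control TGF-β replicate 1 was left out, while the treated call of *Sod3* was made in all 16 alternative fits. The log2 fold change ran from 1.31 to 1.6 for *Sod3* without TGF-β, and with TGF-β from -1.07 to -0.86 for *Prdx4*, -0.94 to -0.62 for *Glrx3* and -0.75 to -0.31 for *Prdx1*. The call of *Prdx1* was also lost with RLE size factors, the replicate block, thinned counts and the fit on only the 4 libraries compared, and those of *Prdx4* and *Glrx3* with the last of these. In the 3 fits without the untreated call of *Sod3*, 42 to 51 genes were called in all, against 238.

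Of 10 tested mitochondrial chaperones and proteases, *Spg7* and *Afg3l2*, which encode subunits of the same protease of the inner membrane, were higher in KO cells with TGF-β. That is 20% called, against 15% of all genes tested. *Spg7* had 128 ± 2.69 against 65.7 ± 1.52 CPM, a log2 fold change of 0.96 (SE 0.13, adjusted p = 0.0028), and *Afg3l2* had 69.3 ± 2.8 against 36 ± 3.52, a log2 fold change of 0.94 (SE 0.15, adjusted p = 0.00516), a call lost with the fit on the 4 libraries compared (adjusted p 6.58e-05 to 0.0505 over the alternatives). Without TGF-β *Spg7* was also higher, by 0.79 (SE 0.13, adjusted p = 0.0187), a call lost without any 1 of the 4 untreated libraries, in fits that called 42 to 53 genes in all against 238, while the log2 fold change stayed at 0.76 to 0.81. Of the 10, 0 were called for TGF-β in either genotype by edgeR, against 9.16% and 6.82% of all genes tested. The smallest p was that of *Spg7* in control cells (-0.28, adjusted p = 0.196) and of *Afg3l2* in KO cells (0.43, adjusted p = 0.128). A count of 0 of 10 does not set these genes apart.

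**Figure D5:**
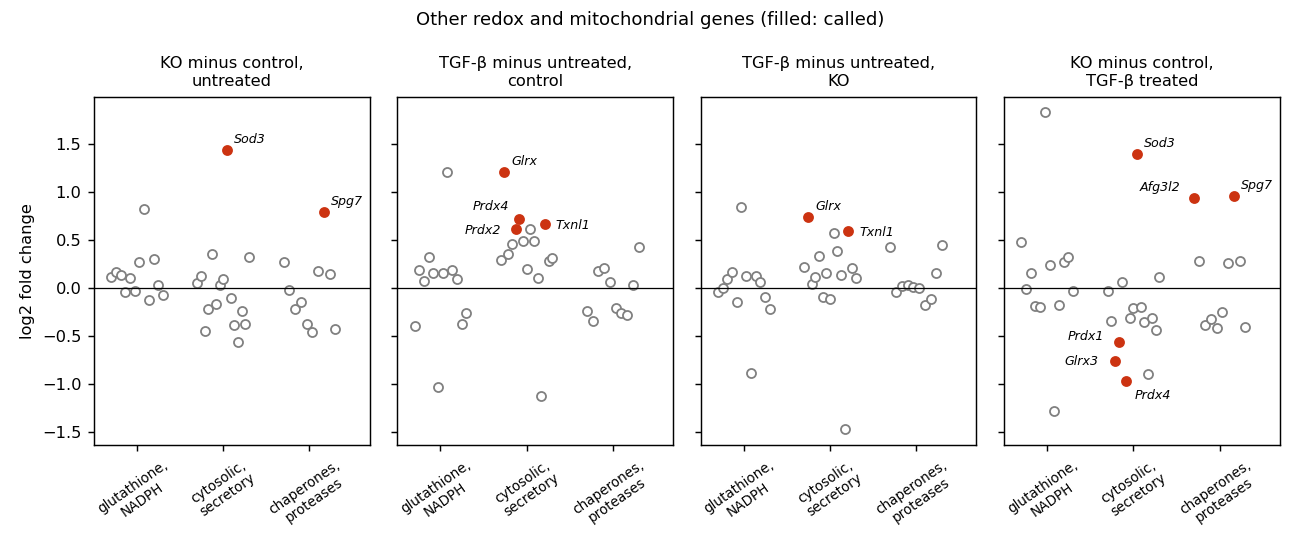
Fitted log2 fold changes of the 37 tested genes of the 3 lists in the 4 comparisons, 1 point per gene, filled and named where called at an adjusted p under 0.05 and an absolute log2 fold change over 0.5. The cytosolic and secretory genes lie mostly above 0 for TGF-β in control cells (14 of 15, against 6695 of 13028 of all genes), and *Sod3* at 1.44 and 1.4 is higher in KO cells without and with TGF-β.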

How the data were processed

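RNA-seq libraries of NMuMG cells were compared, 2 per group in 4 groups. The authors deposited raw, whole-number gene counts in 1 table with a column for each of the 8 libraries, and every column entered the fits. The methods of the study name subjunc of Rsubread, the mm10 and mm9 assemblies, duplicate removal and DESeq2, whereas the submitters' processing notes name HISAT2, limma and mm10. How reads were assigned to genes, and whether strand was used, is not given in the sources used here. Paper and labels also differ on RNA extraction, library kit, sequencer and read layout. The 37310 identifiers and their order equal those of GENCODE vM1 (mm9), which gave symbols, positions and exon lengths. Duplicate removal without molecular identifiers can compress the counts of abundant genes.

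From the counts, edgeR 4.0.16 (R 4.3.3) gave TMM-scaled CPM and the tests. The filter filterByExpr retained 13028 genes, and all 8 libraries were fitted with 1 coefficient per group and no block (glmQLFit, glmQLFTest, Benjamini-Hochberg adjustment over all genes tested). A gene was called at an adjusted p under 0.05 and an absolute log2 fold change over 0.5. The standard error is the absolute log2 fold change divided by the square root of F. Residual degrees of freedom numbered 4, and the common dispersion corresponded to a biological coefficient of variation of 0.18. Profiles used log2 CPM with a prior count of 2. The script was tested on simulated counts. Near-identical copies of the coding sequences were sought with BLAST 2.17.0.

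The members and lists were chosen with earlier results of these data known. Named were all members, up to 4 called genes per list and comparison by smallest p or otherwise the gene with the smallest p, the genes overlapping a member or starting within 2000 bases of its start, and the 5 genes nearest to *Txn2* in profile. A gene that this rule takes in is not reported here. Alternatives were RLE size factors, DESeq2 1.42.0, limma-voom (limma 3.58.1), no filter, a filter at a mean of 10 counts, thinned counts, a block for the replicate number, fits on the 4 libraries compared, no fold change threshold and leaving out each library. The methods of the study call the 2 libraries of a condition biological replicates, while the labels do not say that they were separate cultures, so the p-values measure the spread between these libraries.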

Additional observations from a re-analysis of the deposited data

Results flagged for a closer look

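The response of *Txn2* to TGF-β in KO cells minus that in control cells was 1.7 on the log2 scale. It is listed because both treated control libraries lay below both untreated ones (27.5 and 32.3 against 70.3 and 70.7 CPM) and both treated KO libraries above both untreated ones (95.6 and 101 against 73 and 70.6 CPM). The difference was not tested, since *Txn2* was chosen for it.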

How the results depend on the processing

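With 2 libraries per group, a log2 difference whose 95% interval, given for each tested member above, held 0 could not be told from 0. The intervals are not adjusted for the number of genes tested. Those of *Txnrd2* and *Prdx5* that excluded 0 did not make a call in the fit reported. The fitted directions of *Txn2* held in the alternatives of both TGF-β comparisons and of KO minus control with TGF-β, and its difference of responses ran from 1.62 to 1.84 when 1 library was left out. Of the 5 other members, 0 were called in the fit reported for any comparison. Without the filter, 1 (*Prdx5*) was called for TGF-β in control cells and 1 for TGF-β in KO cells, and leaving out 1 library gave 0 to 1 for TGF-β in control cells, 0 to 1 for TGF-β in KO cells and 0 to 1 for KO minus control with TGF-β. Of the 37 listed genes, the counts reported were 2 without TGF-β, 4 for TGF-β in control cells, 2 for TGF-β in KO cells and 6 for KO minus control with TGF-β, and leaving out 1 library gave 0 to 2, 0 to 4, 0 to 2 and 3 to 8. Fits on only the 4 libraries compared, which have fewer residual degrees of freedom, gave 1 for TGF-β in control cells, 1 in KO cells and 2 for KO minus control with TGF-β. For TGF-β in KO cells the listed count was also 0 with limma-voom, 0 with thinned counts and 4 without the filter. The cause of these changes was not tested.

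Leaving out 1 library turned the sign of values near 0. Without TGF-β, KO minus control ran from -0.34 to 0.05 for *Sod2*. For TGF-β in control cells, *Glrx2* ran from -0.33 to 0.12 and *Sod2* from -0.03 to 0.37. For TGF-β in KO cells, *Prdx3* ran from -0.12 to 0.2, *Glrx2* from -0.29 to 0.01 and *Sod2* from -0.12 to 0.11, and *Glrx2* was 0.01 with thinned counts and *Sod2* 0.05 without the filter. With TGF-β, KO minus control of *Prdx5* ran from -0.09 to 0.63. The difference of responses ran from -0.27 to 0.04 for *Prdx3*, from -0.29 to 0.43 for *Prdx5*, from -0.24 to 0.21 for *Glrx2* and from -0.37 to 0.02 for *Sod2*.

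No label says that a replicate number marks shared samples. Deviations from the group means of same-numbered libraries correlated at 0.098 without TGF-β, 0.297 for TGF-β in control cells, -0.009 for TGF-β in KO cells and -0.473 with TGF-β. With the replicate block, 0 of the 5 other members were called in any comparison and 0 listed genes for TGF-β in KO cells, and the calls among all genes were 150, 831, 676 and 1490 against 238, 1194, 889 and 1959. With the numbers of the treated KO libraries exchanged, an alternative chosen after seeing the data, 1 other member was called for TGF-β in control cells and 1 for TGF-β in KO cells, and the calls among all genes were 540, 1954, 1550 and 2809.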
